A study of Mus musculus with 18 samples.

Results

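The transcripts of 10 genes of the cAMP-dependent protein kinase (PKA) system and the sperm tail were followed in round spermatids (RS) from mice of 3 genotypes, WT, GRTH KO and GRTH KI. They were chosen by name as rows of the gene count table, 10 of its 54232 genes. They are the catalytic subunit gene Prkaca, the regulatory subunit genes Prkar1a, Prkar2a and Prkar2b, the A-kinase anchoring protein (AKAP) genes Akap1, Akap3 and Akap4, and the fibrous sheath genes Ropn1, Ropn1l and Fscb. All 10 passed the filter on low counts, which left 21058 genes for testing. GRTH, encoded by Ddx25, is a testis-specific RNA helicase that male germ cells need to complete spermiogenesis. KO mice lack GRTH, and KI mice carry a human GRTH gene with a missense mutation that leaves the protein without its phosphorylated form. RS came from the testes of mice 75 to 85 days old by sedimentation through a BSA gradient, and total RNA was sequenced with a stranded kit and no polyA selection. Each genotype had 6 libraries, and nothing in the labels says whether each came from a separate animal, so p-values measure only the spread between these libraries.

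PKA is a holoenzyme of catalytic subunits held inactive by a dimer of regulatory subunits, which release them when cAMP binds. AKAPs bind the dimer and fix the kinase at one place in the cell. In sperm, Akap3 and Akap4 are the main structural proteins of the fibrous sheath, the scaffold around the axoneme of the principal piece, and PKA held there phosphorylates targets needed for motility and capacitation. Ropporins carry a docking domain like that of type II regulatory subunits and bind the same AKAP helix.

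Library totals ran from 18766971 to 26776555 counts, and mitochondrial genes took 7.89% to 23.6% of them, with the highest share in KO 3. Ddx25 read 538 to 607 CPM (counts scaled to library size) in WT, 47.7 to 90.9 CPM in KO and 0.0456 to 0.519 CPM in 5 of the KI libraries. The library labelled KI 4 read 56.9 CPM, inside the KO range, and of all 153 pairs of libraries its counts were closest to those of KO 2, so the KI fold changes and ratios of the members are also given without it. The library pairs WT 1 and WT 2, WT 3 and WT 4, WT 5 and WT 6, KO 4 and KO 5, KI 1 and KI 2, and KI 3 and KI 5 were closer to each other than any other pair of one genotype. Their squared differences were 2.12 to 3.001 times what counting noise gives, against 4.62 or more for the other 39 pairs, so they were kept as separate libraries and also summed as an alternative. All 8 genes of a round spermatid marker list were tested, and their summed level was 851 to 1374 CPM in WT, 544 to 1232 CPM in KO and 584 to 842 CPM in KI. By any amount 2 of these 8 were lower in KO, with a median log2 fold change of -0.10, and 3 were lower in KI, with a median of -0.39, and none was higher. A list of 10 late or elongating spermatid markers summed to 14135 to 19543 CPM in WT, 1676 to 4015 CPM in KO and 2151 to 3382 CPM in KI. In both mutants 10 of 10 were called lower. The paper already names all 10 as changed in these data, so this count is a description and not an independent readout. It also states that mRNAs of Prm2 and Tnp2, both on this list, are already made and stored in RS. The list therefore does not mark elongating cells alone. In both mutants, by the paper's account, RS fail to elongate. Gapdhs is also one of the fibrous sheath genes below. A list of 6 Leydig cell markers summed to 9.76 to 19.7 CPM in WT, 29.9 to 52.0 CPM in KO and 13.4 to 66.1 CPM in KI, and 6 of 6 were called higher in both. No marker of these lists was at or under 3 counts in every library. In bulk RNA, fewer cells of a type and less RNA per cell cannot be told apart, and the part of these cell populations in the results below was not tested.

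Prkar2a and Akap4 fell the most in both mutants, to 20.3% and 23.3% of the WT mean in KO and to 18.6% and 19.7% in KI. Akap1 and Fscb fell less, Ropn1 less again, and Prkaca, Prkar1a, Prkar2b and Ropn1l passed no test. Both tests used edgeR's quasi-likelihood model and Benjamini-Hochberg adjustment at 0.1, one for a change past 1 log2 unit and one for a change of any amount. In KO against WT, 2 of 10 members were called lower past 1 log2 unit, where 1.13% of all genes tested were, and 5 of 10 were lower by any amount, where 13.5% were. In KI against WT, 3 of 10 were lower past 1 log2 unit, where 1.43% of all genes were, and 6 of 10 were lower by any amount, where 15.4% were. None was called higher in either comparison, by edgeR or DESeq2, and at an unadjusted p under 0.05 the count of higher members was 0 in both as well. The median log2 fold change of the members was -0.71 in KO and -0.90 in KI, and that of all genes tested was 0.03 and 0.05. The libraries did not overlap with WT for 4 members in KO and 6 in KI, all lower in the mutant, against 6.44% and 7.91% of all genes that were lower without overlap. KO and KI were set against one and the same group of WT libraries, so their values share its error.

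**Figure D1:**
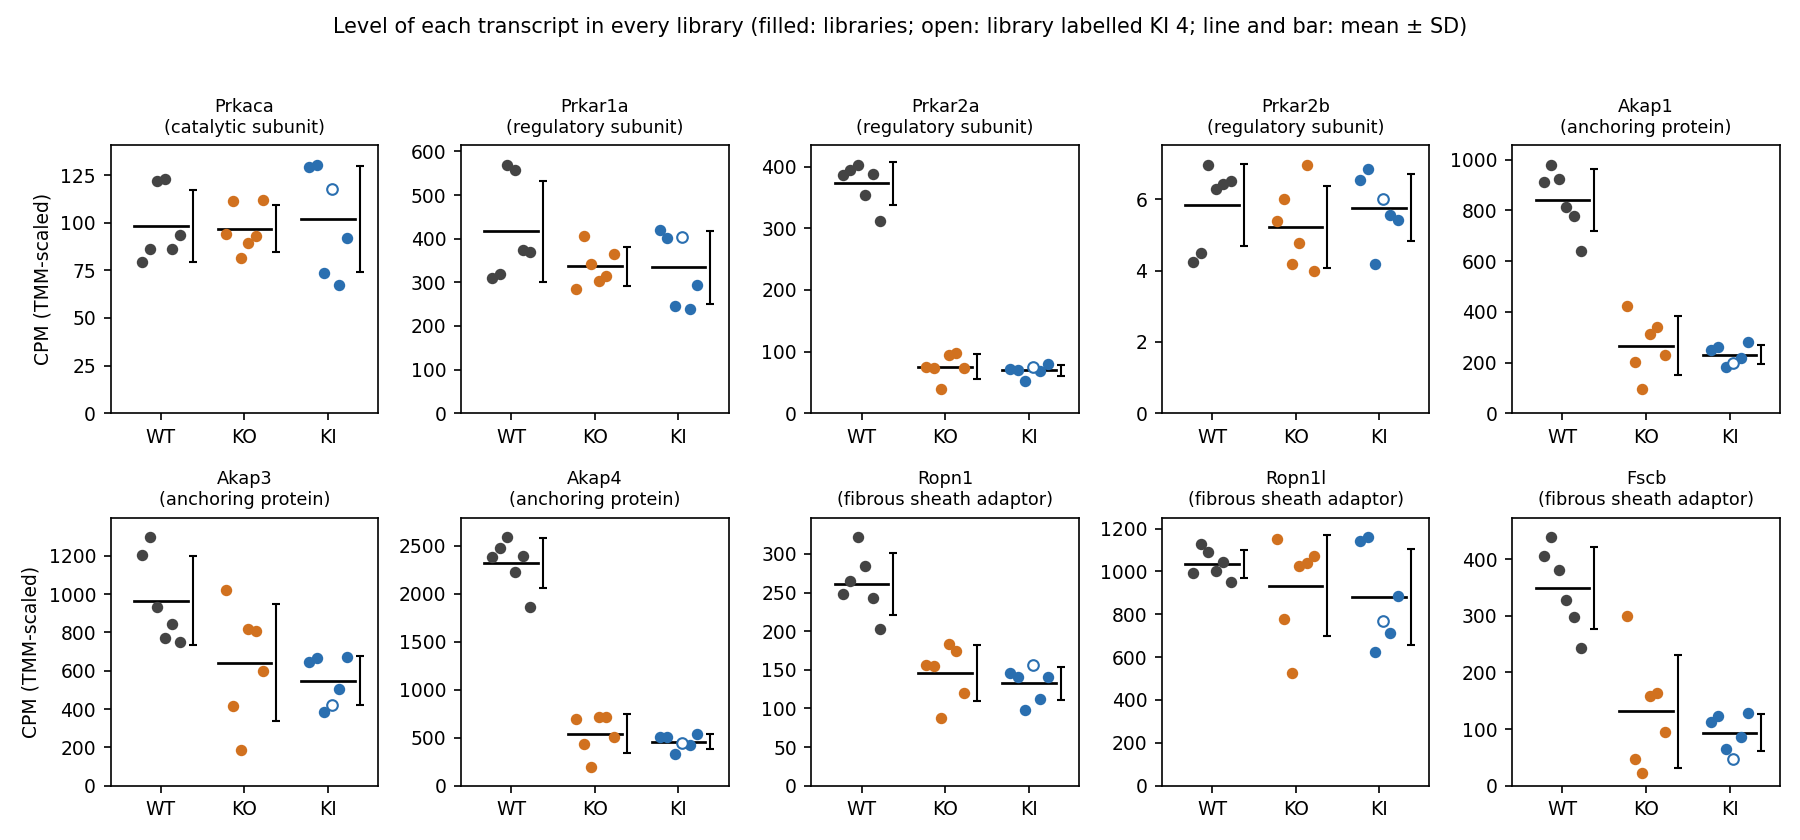
CPM (linear axes from 0) of each of the 10 transcripts in the 6 WT, 6 KO and 6 KI libraries, with the mean and SD of each genotype and the library labelled KI 4 drawn open. Prkar2a, Akap4, Akap1 and Ropn1 in every KO and KI library lie under every WT library, while Prkaca, Prkar1a, Prkar2b and Ropn1l overlap.

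**Figure D2:**
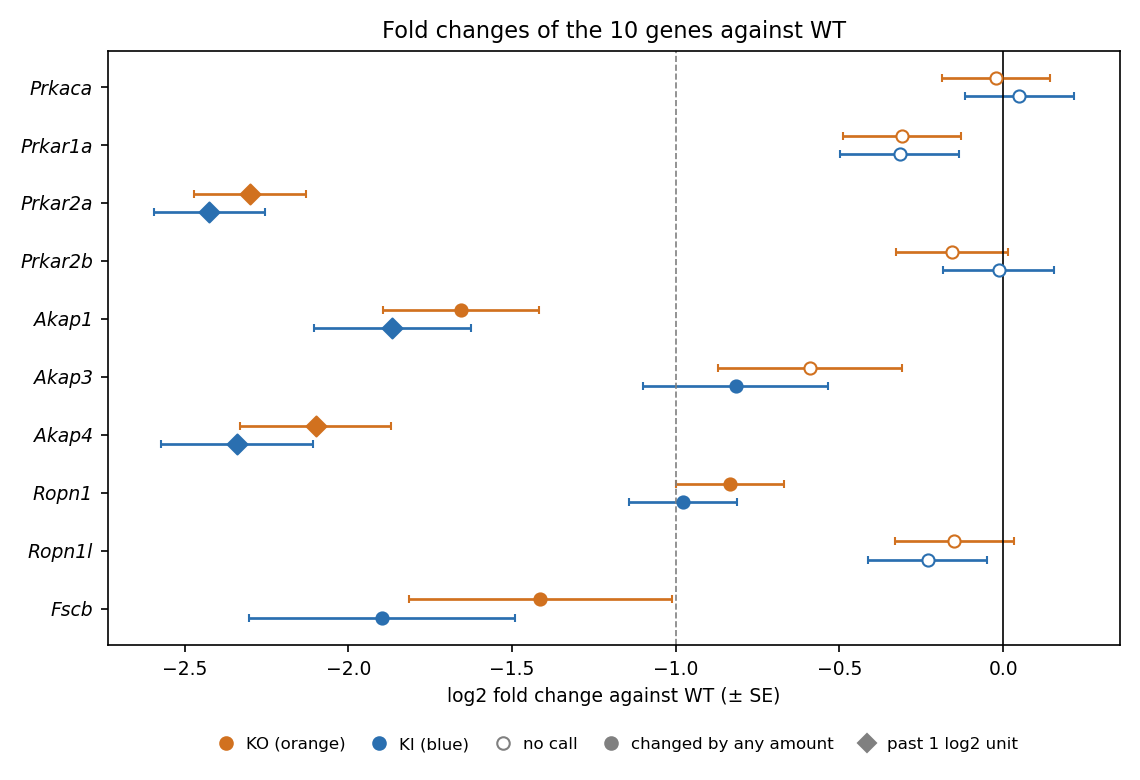
Log2 fold change against WT with its SE for KO (orange) and KI (blue), where filled symbols changed by any amount, diamonds also past 1 log2 unit (dashed line) and open symbols passed neither test. Prkar2a and Akap4 lie between -2.10 and -2.42 in both mutants, and Prkaca lies at -0.02 and 0.05.

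In WT RS the levels of these transcripts spanned a wide range when expressed as CPM per kb of exon. Ropn1l was the highest at 1081 ± 69.1 (SD, n = 6) CPM per kb, followed by Akap4 at 766 ± 84.6 CPM per kb. Akap3, Ropn1 and Akap1 came next at 306 ± 73.2, 194 ± 29.95 and 192 ± 28.1 CPM per kb, and the ranges of neighbours in this run overlapped. Fscb at 104 ± 21.6 and Prkar1a at 96.5 ± 26.9 CPM per kb overlapped too, as did Prkar2a at 58.5 ± 5.40 and Prkaca at 39.5 ± 7.67 CPM per kb. Prkar2b was lowest at 1.60 ± 0.315 CPM per kb. In KO and KI, Ropn1l stayed first without overlap, at 974 ± 246 and 921 ± 234 CPM per kb. Akap4 dropped behind Akap3 in the order, although the ranges of these neighbours overlapped in both mutants, and Prkar2a moved below Prkaca, without overlap.

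Prkaca encodes the catalytic subunit Cα, whose shorter isoform is the one of sperm. The gene lies on chromosome 8 (GRCm38, 83972993 to 83996443, plus strand). Its level was 79.5 CPM at the lowest, 89.8 at the median and 123 at the highest in WT, 81.3, 93.4 and 112 CPM in KO, and 67.5, 105 and 130 CPM in KI. The genotypes overlapped throughout, with WT 3, WT 4, KI 1 and KI 2 at the high end. In KO the log2 fold change was -0.02 ± 0.17 (SE), with an approximate 95% interval of -0.35 to 0.30, and in KI it was 0.05 ± 0.17, with an interval of -0.28 to 0.37. The adjusted p for a change of any amount was 0.949 and 0.873 in edgeR's test. Without the library labelled KI 4 the KI value was 0.0038 ± 0.18. Counts were summed over the whole gene, so the isoforms were not separated.

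Prkar1a, on chromosome 11 (109649405 to 109669656, plus strand), encodes the type I subunit RIα, which occurs in most tissues. Its lowest, median and highest levels were 311, 372 and 569 CPM in WT, 286, 328 and 407 CPM in KO, and 239.8, 349 and 420.3 CPM in KI. WT 3 and WT 4 stood above all other libraries, and the other 4 WT libraries lay inside the range of the mutants. The log2 fold change was -0.31 ± 0.18 in KO and -0.32 ± 0.18 in KI, and neither passed the test (edgeR adjusted p = 0.245 and 0.225). The intervals of -0.67 to 0.05 and -0.67 to 0.04 hold both no difference and a moderate fall. Without the library labelled KI 4 the KI value was -0.38 ± 0.19 (adjusted p = 0.168).

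Prkar2a encodes RIIα, the type II subunit that binds AKAPs in the sperm tail, and was the PKA subunit that changed. It lies on chromosome 9 (108689314 to 108750436, plus strand). WT libraries read 312 CPM at the lowest, 387 at the median and 403 at the highest, KO libraries 39.9, 74.7 and 97.5 CPM, and KI libraries 51.9, 70.8 and 79.3 CPM. Every mutant library was far below every WT library, with KO 3 lowest. The KO mean was 20.3% and the KI mean 18.6% of the WT mean. Its log2 fold change was -2.30 ± 0.17 in KO, a 4.93-fold fall, and -2.42 ± 0.17 in KI, a 5.37-fold fall (edgeR adjusted p for a change past 1 log2 unit = 1.58e-05 and 3.42e-06). Without the library labelled KI 4 the KI value was -2.45 ± 0.19. All 30 alternatives for each comparison kept both calls.

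Prkar2b, on chromosome 12 (31958476 to 32061296, minus strand), encodes RIIβ, best known from brain and adipose tissue. It had only 88 to 174 counts per library. Its lowest, median and highest levels were 4.25, 6.37 and 6.96 CPM in WT, 3.98, 5.09 and 6.97 CPM in KO, and 4.20, 5.79 and 6.87 CPM in KI. The 3 ranges nearly coincided. The log2 fold change was -0.16 ± 0.17 in KO (interval -0.49 to 0.18) and -0.01 ± 0.17 in KI (interval -0.35 to 0.32), with edgeR adjusted p = 0.577 and 0.971, and it was -0.03 ± 0.18 in KI without the library labelled KI 4.

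The transcripts of Prkar2a and Akap1 are shown beside the microRNAs that the study placed with them in its target network, since microRNA seeds can be read directly in the 3′UTR. A seed is bases 2 to 8 of the mature microRNA, here in capitals (RefSeq, GRCm38.p6). The levels of these microRNAs were not analysed here.
mmu-miR-322-5p: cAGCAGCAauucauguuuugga
mmu-miR-15a-5p: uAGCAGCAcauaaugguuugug
mmu-miR-130b-3p: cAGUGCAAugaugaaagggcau

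The first and second of these microRNAs share the seed AGCAGCA, whose complement in a transcript is TGCTGCT, and the third pairs with TTGCACT. The longest annotated 3′UTR of each gene (GENCODE M21) was searched on the transcript strand. TGCTGCT was found in 22.2% of 21153 3′UTRs, whose median length was 1084 bases. Prkar2a, with 3442 bases of 3′UTR, held 5 matches, the last pair overlapping by 4 bases. Of 2241 3′UTRs within 20% of that length, 43.9% held at least 1 match and 0.535% held 5 or more. Windows around some of the matches are shown, with the match in capitals, and the last line covers the overlapping pair, whose letters run together.
Prkar2a site at base 96 of the 3′UTR, chr9:108747075-108747101, plus strand: cgacagaaccgctccTGCTGCTgtctc
Prkar2a site at base 339, chr9:108747318-108747344, plus strand: cctcctttcctctctTGCTGCTaacgt
Prkar2a sites at bases 2610 and 2613, chr9:108749589-108749615, plus strand: ggcggagccgctatgTGCTGCTGCTgg

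Prkar1a and Akap1 held 1 TGCTGCT match each, and the other 7 members held none. TTGCACT was found in 10.3% of all 3′UTRs. Akap1 held 1 match in 2000 bases, where 12.3% of 3107 3′UTRs of similar length held one. Akap4 held 1 match in only 190 bases, where 1.31% of 1146 3′UTRs of similar length held one. Both are shown because these genes fell in the mutants. A match of letters is a description of the sequence and was not tested as a functional site. The study kept only pairs that its target databases list as known or predicted. The matches in Prkar2a and Akap1 are therefore not an independent readout, and their shares beside other 3′UTRs are descriptions only.
Akap1 site at base 1067, chr11:88831714-88831740, minus strand: ttgcttcggtcttctTTGCACTgttga
Akap4 site at base 133, chrX:7078537-7078563, plus strand: aatacatctgagcagTTGCACTgtgaa

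The promoters, each 250 bases before to 50 bases after a RefSeq start site (GRCm38.p6), were searched on both strands for the cAMP response element, the letters that CREB and CREM bind. The full palindrome TGACGTCA occurred in 1.79% of 32851 promoters and the shorter form TGACG, which it contains, in 20.8%. Among the members the full site was found only at Prkar1a, and the shorter form at Prkaca, Prkar1a and Prkar2a. A Prkar1a full site and the Prkar2a short form beside the start are shown, in capitals, because one gene passed no test and the other fell most.
Prkar1a full site, chr11:109650889-109650918, plus strand: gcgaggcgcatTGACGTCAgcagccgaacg
Prkar2a short form, read as CGTCA on this strand, chr9:108692128-108692157, plus strand: gcggccgcgtgCGTCAcaacccgggcgcct

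Promoter base composition also differed between members. The promoters of Akap3 and Fscb and the first of Akap4 held no CpG, as did 5.43% of all promoters, whose median was 7 CpG. The promoter of Prkar2a held 31 CpG and that of Ropn1l 22, and the Ropn1 promoter held 2. The Prkaca promoters held 31 and 2 CpG, those of Prkar1a 3 to 46, those of Prkar2b 32 and 28, and those of Akap1 4, 40 and 5. The second Akap4 promoter held 1. A relation between promoter composition and fold change was not tested.

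Of the anchoring proteins, Akap4 and Akap1 fell in both mutants, and Akap3 fell only in KI by the test used, a difference between the mutants that was itself not called. Akap1 encodes the AKAP of the outer mitochondrial membrane. Its lowest, median and highest levels were 641, 862 and 979 CPM in WT, 96.02, 272 and 421 CPM in KO, and 182, 232 and 280.4 CPM in KI. All mutant libraries were below all WT libraries, and in KO the libraries KO 1 and KO 3 were the highest and the lowest. Akap1 changed by -1.66 ± 0.24 log2 units in KO, a 3.15-fold fall, and -1.87 ± 0.24 in KI, a 3.65-fold fall (edgeR adjusted p for any amount = 2.31e-05 and 4.75e-06). The gene lies on chromosome 11 (88830792 to 88864586, minus strand), and its exons overlap the antisense gene 4930556N13Rik, which stranded counting keeps apart.

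Past 1 log2 unit, Akap1 was called in KI (edgeR adjusted p = 0.0393) and not in KO (adjusted p = 0.243). The KI call was kept without the library labelled KI 4 (-1.83 ± 0.26, adjusted p = 0.0941). It was lost without WT 3 (adjusted p = 0.1003) or KI 3 (adjusted p = 0.105), with library totals in place of TMM factors (-1.72, adjusted p = 0.123) and with the close library pairs summed (adjusted p = 0.593). In KO, it was gained without KO 1, where the log2 fold change was -1.83 (adjusted p = 0.0466), and with the interval form of the test (adjusted p = 0.0524).

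Akap3, on chromosome 6 (126853098 to 126874308, plus strand), encodes a fibrous sheath AKAP that is laid down early in sheath assembly. Its lowest, median and highest levels were 748, 888 and 1296 CPM in WT, 186, 703 and 1023 CPM in KO, and 383, 575 and 671 CPM in KI. All KI libraries were below all WT libraries, while KO 1, KO 4 and KO 5 lay inside the WT range and KO 3 lay far below it. The log2 fold change was -0.59 ± 0.28 in KO (edgeR adjusted p = 0.140) and -0.82 ± 0.28 in KI (adjusted p = 0.0370). The KO value was called without KO 1 (-0.77, adjusted p = 0.0502). The KI call held without the library labelled KI 4 (-0.75 ± 0.30, adjusted p = 0.0757) and was lost with the close library pairs summed (-0.80 ± 0.39, adjusted p = 0.239).

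Akap4, on chromosome X (7067519 to 7078609, plus strand), encodes the most abundant fibrous sheath protein. Its lowest, median and highest levels were 1857, 2386 and 2585 CPM in WT, 197, 597 and 711 CPM in KO, and 334, 471 and 541 CPM in KI. No mutant library came near the WT range, and KO 3 was again the lowest. The KI mean was 19.7% of the WT mean, a log2 fold change of -2.34 ± 0.23 (edgeR adjusted p past 1 log2 unit = 0.000413), and without the library labelled KI 4 it was -2.33 ± 0.26 (adjusted p = 0.00143). In KO the adjusted p past 1 log2 unit was 0.00389. Only with the close pairs summed and the library labelled KI 4 left out did the KI call past 1 log2 unit miss the threshold (adjusted p = 0.117).

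Ropn1 and Ropn1l, which encode the paired ropporins of the fibrous sheath, differed from each other in their response. Ropn1, on chromosome 16 (34649921 to 34678618, plus strand), read 202, 257 and 321 CPM at the lowest, median and highest in WT, 87.5, 156 and 183 CPM in KO, and 98.4, 141 and 156 CPM in KI. WT and mutant libraries did not overlap. Its log2 fold change was -0.83 ± 0.17 in KO and -0.98 ± 0.17 in KI (edgeR adjusted p for any amount = 0.000727 and 0.000131), and -1.03 ± 0.18 without the library labelled KI 4. Ropn1l, on chromosome 15 (31441211 to 31453737, minus strand), read 949.6, 1022 and 1127 CPM in WT, 524, 1032 and 1152 CPM in KO, and 623, 828 and 1159 CPM in KI. WT libraries lay close together, and the mutants spread around and below them, with KO 3 and KI 3 the lowest of each. Its log2 fold change was -0.15 ± 0.18 in KO (interval -0.51 to 0.21) and -0.23 ± 0.18 in KI (interval -0.59 to 0.13), and neither was called (edgeR adjusted p = 0.622 and 0.400). In KI without the library labelled KI 4 it was -0.19 ± 0.19.

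Fscb encodes a fibrous sheath protein that binds CABYR and is phosphorylated by PKA. The gene lies on chromosome 12 (64471330 to 64474690, minus strand). Its lowest, median and highest levels were 244, 354 and 438 CPM in WT, 23.03, 127 and 299 CPM in KO, and 47.0, 99.6 and 129 CPM in KI. KO libraries spread over the widest relative range of any member, with an SD of 76.4% of the mean, and KO 1 alone lay inside the WT range. The library labelled KI 4 was the lowest in KI. The log2 fold change was -1.41 ± 0.40 in KO and -1.90 ± 0.41 in KI (edgeR adjusted p for any amount = 0.0127 and 0.00135), and -1.76 ± 0.42 in KI without the library labelled KI 4. Neither was called past 1 log2 unit (adjusted p = 1 and 0.559), while KI was with only the 2 genotypes compared (adjusted p = 0.0386). The KI call for any amount was lost when close pairs were summed and that library left out as well (adjusted p = 0.116).

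The proportions between members, taken as ratios of CPM per kb within each library, shifted with these unequal falls. Prkar2a made up 38.2% ± 6.62 (SD, n = 6) of the 3 regulatory transcripts in WT, 13.1% ± 3.90 in KO and 12.5% ± 2.51 in KI, and WT did not overlap with either mutant (29.8% to 45.3% against 7.23% to 17.1% and 10.2% to 15.99%). Prkar1a made up most of the rest, 60.8% ± 6.59 in WT, 85.3% ± 4.14 in KO and 85.7% ± 2.71 in KI. Prkar1b, a further regulatory subunit gene on the pathway list, was left out of these shares and of the sum. The 3 regulatory transcripts summed to 3.98 ± 0.255 times the Prkaca level in WT, 2.36 ± 0.197 times in KO and 2.23 ± 0.160 times in KI. This ratio varied less between libraries of a genotype than Prkaca or Prkar1a did alone.

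Akap4 stood at 2.58 ± 0.451 times Akap3 in WT, 0.933 ± 0.1495 times in KO and 0.886 ± 0.108 times in KI. WT libraries ranged from 1.99 to 2.998, KO from 0.702 to 1.10 and KI from 0.790 to 1.09. KO 3, where both transcripts were lowest, had the highest ratio of the mutant libraries, 1.10. Ropn1l stood at 5.65 ± 0.689 times Ropn1 in WT, 9.09 ± 1.99 times in KO and 9.35 ± 1.67 times in KI, with every mutant library above every WT library. Fscb stood at 0.342 ± 0.0387 times Akap3 in WT, 0.170 ± 0.0613 times in KO and 0.157 ± 0.0268 times in KI. These ratios depend on the annotated exon lengths, which are the same in all libraries, and are given as descriptions without a test. In KI without the library labelled KI 4, the Prkar2a share was 12.8% ± 2.68 (SD, n = 5) and the regulatory sum 2.22 ± 0.178 times Prkaca. Akap4 to Akap3 was then 0.846 ± 0.0474, Ropn1l to Ropn1 9.83 ± 1.32 and Fscb to Akap3 0.167 ± 0.00941.

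**Figure D3:**
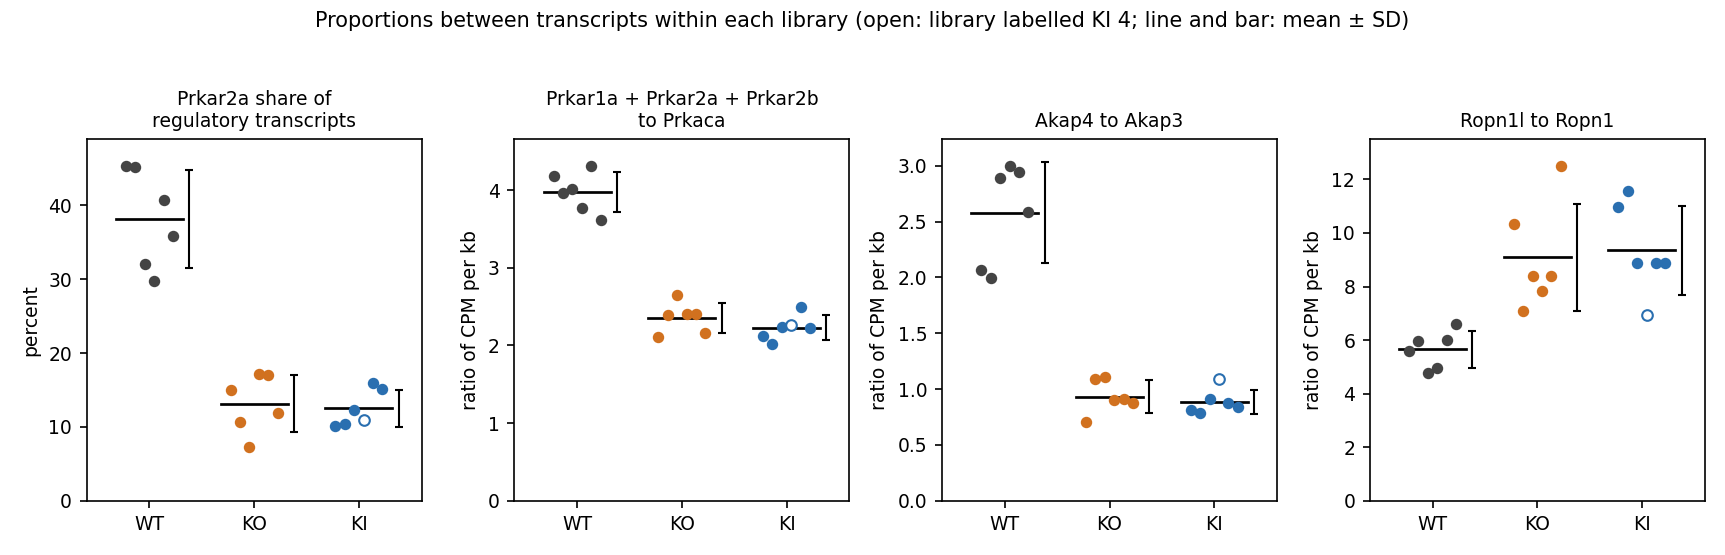
Share of Prkar2a among the 3 regulatory transcripts (percent) and ratios of CPM per kb for 3 groups of members in each library, with mean and SD and the library labelled KI 4 open. WT libraries lie apart from KO and KI libraries in all 4 panels, at 1.99 to 2.998 for Akap4 to Akap3 against at most 1.10 in the mutants.

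KI and KO RS were compared directly to ask whether loss of GRTH and loss of its phosphorylated form gave different levels. No member was called past 1 log2 unit or by any amount, where 0.00475% and 0.0997% of all genes were. The smallest adjusted p was 0.961 in edgeR's test, 0 members were called at an unadjusted p under 0.05, and DESeq2 called 0 as well. The log2 difference of KI against KO was largest for Fscb at -0.48 ± 0.39 (interval -1.26 to 0.29), followed by Akap4 at -0.24 ± 0.22 (interval -0.68 to 0.19) and Akap3 at -0.23 ± 0.28 (interval -0.78 to 0.32). For Prkar2a it was -0.12 ± 0.16 (interval -0.44 to 0.19), for Akap1 -0.21 ± 0.23 (interval -0.67 to 0.25) and for Ropn1 -0.14 ± 0.16 (interval -0.47 to 0.18). Ropn1l was at -0.08 ± 0.18 (interval -0.44 to 0.28) and Prkar1a at -0.0075 ± 0.18 (interval -0.36 to 0.35). Prkar2b, at 0.14 ± 0.17 (interval -0.19 to 0.48), and Prkaca, at 0.07 ± 0.17 (interval -0.25 to 0.40), were on the other side of 0. These intervals still allow differences of the size of the Ropn1 fall for Fscb. The ranges of the 2 genotypes overlapped for all 10 members, where 0.223% of all genes did not overlap. Without the library labelled KI 4, Fscb differed by -0.35 ± 0.41 and none was called.

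Some members varied together among libraries of one genotype. With genotype means removed, over all 18 libraries, Akap1 and Akap3 had Pearson r = 0.972, Akap1 and Akap4 0.965, Akap3 and Fscb 0.957 and Prkar2a and Akap4 0.947. Prkaca and Prkar1a formed a different pair with r = 0.922, and Prkaca with Akap3 had 0.121. These values describe log2 levels of libraries that include the 6 close pairs and KO 3, and share their depth and cell makeup, so no p is given. Among 7759 protein-coding genes with a mean of at least 10 CPM, the 5 most like Akap4 over the 18 libraries were Ubl4b, Dnajb8, Dbil5, Gapdhs and Mex3d, with r from 0.997 to 0.999. The 5 most like Akap3 were Kcne3, Sgf29, Armc12, Fam205c and Stat4, with r from 0.990 to 0.994. No gene stood in both groups of 5. Genotype means were left in these values, so they include the difference between WT and the mutants, and with the means removed r was 0.978 to 0.992 for the first group and 0.986 to 0.994 for the second.

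The wider pathway was read from a list of 81 other genes, of which 77 were tested and Cmya5, Adcy4, Adcy8 and Pde3a had too few counts. In KO against WT, 19 of 77 were lower by any amount and 14 higher, that is 24.7% and 18.2%, where 13.5% and 16.4% of all genes tested were. In KI against WT, 23 were lower and 11 higher, that is 29.9% and 14.3%, where 15.4% and 16.1% of all genes were. With library totals in place of TMM factors the split was 16 lower and 20 higher in KO and 21 lower and 22 higher in KI, and the median of all genes moved to 0.15 and 0.20. Of all 21058 genes, 2151 were then lower and 5214 higher in KO, and 2485 and 5628 in KI. With the close library pairs summed the split of the pathway genes was 15 lower and 5 higher in KO and 17 lower and 4 higher in KI. Without the library labelled KI 4 it was 22 lower and 12 higher in KI, and the 5 largest falls and 5 largest rises in KI by fold kept their calls, with edgeR adjusted p of at most 0.0550. Under TMM the median log2 fold change of the 77 genes was -0.01 in KO and -0.00019 in KI. Only Gapdhs, the sperm glyceraldehyde-3-phosphate dehydrogenase of the fibrous sheath, was called past 1 log2 unit. Its level was 783 ± 94.4 CPM in WT, 165 ± 72.0 CPM in KO and 132 ± 21.6 CPM in KI, a log2 fold change of -2.24 ± 0.25 and -2.56 ± 0.25.

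The 16 genes listed by role as other fibrous sheath genes held the most falls. In KO 10 were lower, with a median of -0.58, and in KI 11 were lower, with a median of -0.78. These are 62.5% and 68.8% of the list, where 13.5% and 15.4% of all genes were lower. The others were not called. With the close library pairs summed, 8 and 9 were lower, where 1784 and 1783 of 23062 genes were. After Gapdhs came Hk1, the hexokinase whose sperm form is bound to the sheath, at 1243 ± 318 CPM in WT, 406 ± 249 CPM in KO and 332 ± 97.9 CPM in KI, a log2 fold change of -1.62 and -1.90. Tcp11, a gene of sperm motility and capacitation, had 1643 ± 311 CPM in WT, 757 ± 326 CPM in KO and 637 ± 159 CPM in KI. Its log2 fold change was -1.37 in KI.

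Of the 23 other AKAPs and regulatory subunit binding proteins, 2 were lower and 6 higher in KO, and 5 lower and 3 higher in KI, where 13.5% and 16.4% of all genes were in KO and 15.4% and 16.1% in KI. With library totals it was 2 lower and 7 higher in KO and 4 lower and 8 higher in KI. Of all 21058 genes, 2151 were then lower and 5214 higher in KO, and 2485 and 5628 in KI. With the close library pairs summed 1 was lower and 1 higher in KO and 2 lower and 1 higher in KI. Of all 23062 genes then tested, 1784 were lower and 1871 higher in KO, and 1783 and 1619 in KI. Akap12, a scaffold of the cell membrane, had 1416 ± 596 CPM in WT, 589 ± 543 CPM in KO and 430 ± 67.1 CPM in KI, a log2 fold change of -1.26 ± 0.36 and -1.72 ± 0.37, and its KO range of 271 to 1691 CPM overlapped with WT. Of the 5 other PKA subunits and inhibitors, only the inhibitor gene Pkib was called, at -0.92 in KO and -1.11 in KI. Prkacb, the second catalytic subunit gene, was at 0.0271 ± 0.00535 times the Prkaca level per kb in WT.

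Genes of cAMP production and breakdown were called higher more often than lower. Of 23 tested, 7 were higher and 3 lower in KO, where 16.4% and 13.5% of all genes tested were. In KI 8 were higher and 3 lower, where 16.1% and 15.4% of all genes were. The median log2 fold change of the group was 0.24 in KO and 0.26 in KI. With at least 10 counts in every library, which left out Pde4c, 17 were tested, and 6 were higher and 3 lower in each mutant. Of all 16543 genes then tested, 2963 were higher and 2456 lower in KO, and 2957 and 2851 in KI. With the close library pairs summed, 24 were tested, and 4 and 3 were higher and 2 lower in each. Of all 23062 genes then tested, 1871 were higher and 1784 lower in KO, and 1619 and 1783 in KI. Pde1b, a calmodulin-dependent phosphodiesterase, fell from 4.81 ± 1.28 CPM in WT to 2.07 ± 0.698 CPM in KO, a log2 fold change of -1.22 ± 0.24. In KI it was at 2.17 ± 0.688 CPM. Some transcripts at higher levels had lower means in the mutants. Pde1a was at 270 ± 36.7 CPM in WT, 152 ± 47.0 CPM in KO and 139 ± 25.9 CPM in KI. The cyclase gene Adcy10 was at 404 ± 41.3, 304 ± 77.2 and 309 ± 44.8 CPM. Others had higher means, Pde3b at 191 ± 20.4, 207 ± 13.7 and 209 ± 15.5 CPM and Pde4a at 122 ± 28.6, 164 ± 28.8 and 152 ± 38.3 CPM. The largest rises by fold were of transcripts at low levels. Adcy1, a membrane adenylyl cyclase, was at 5.01 ± 0.630 CPM in WT, 8.05 ± 1.82 CPM in KO and 8.72 ± 0.674 CPM in KI, a log2 fold change of 0.68 ± 0.14 and 0.80 ± 0.14. The cAMP phosphodiesterase Pde4c rose by 1.73 ± 0.47 log2 units in KO and 1.58 ± 0.48 in KI from a WT mean of 0.144 CPM. Its WT libraries read 0 to 0.237 CPM, around the floor of 3 counts, which was 0.112 to 0.146 CPM in WT. The size of this rise is therefore uncertain, and the KO range of 0.0433 to 0.699 CPM overlapped with WT. The cyclases Adcy7 and Adcy5 rose by 1.02 and 0.86 log2 units in KO and 1.03 and 0.79 in KI from WT means of 0.600 and 0.642 CPM. Adcy9 rose by 0.56 log2 units in KO and Adcy6 by 0.60 in KI, each named for the mutant where it was among the 5 largest rises. Adcy9 was at 1.95 ± 0.481 CPM in WT, 2.87 ± 0.529 CPM in KO and 2.91 ± 0.666 CPM in KI. Adcy6 was at 5.18 ± 0.976 CPM in WT, 6.29 ± 1.67 CPM in KO and 7.86 ± 1.40 CPM in KI.

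Of the 10 other cAMP effectors and transcription factors, 3 were lower in both mutants and 1 was higher in KO. That is 30% lower and 10% higher in KO, where 13.5% and 16.4% of all genes were. In KI it is 30% lower, where 15.4% of all genes were, and none was higher. Kif17, a kinesin that moves the CREM coactivator out of the spermatid nucleus, was at 372 ± 87.8 CPM in WT, 136 ± 105 CPM in KO and 97.5 ± 27.6 CPM in KI, a log2 fold change of -1.45 ± 0.36 and -1.93 ± 0.37. Crem itself, the main cAMP-responsive activator of spermatids, fell by 0.60 log2 units in KO and 0.73 in KI, and its coactivator gene Fhl5 fell by 0.47 and 0.66.

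**Figure D4:**
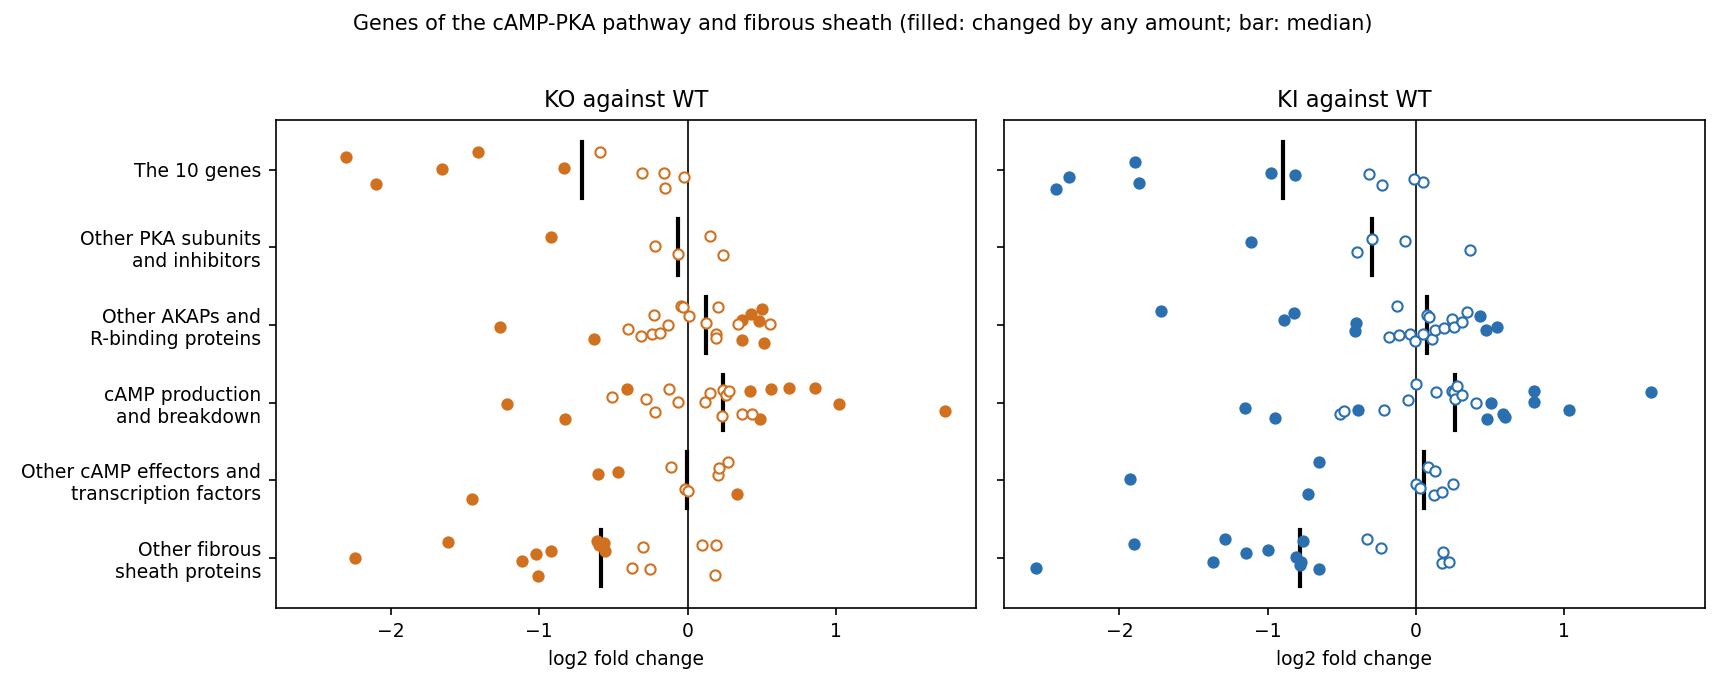
Log2 fold change of each tested gene in KO (left) and KI (right) against WT, for the 10 members and 5 groups of the wider pathway, filled where changed by any amount, with a bar at each group's median. The members and the other fibrous sheath genes have medians of -0.71 and -0.58 in KO, and the cAMP production and breakdown group has 0.24.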

How the data were processed

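The deposited table holds read counts per gene, made by the authors from paired-end reads of 18 libraries. According to the methods and the header of the deposited counts, reads were trimmed with cutadapt 3.4, aligned to GRCm38 with STAR 2.7.8a and counted on the reverse strand with featureCounts 2.0.1 over GENCODE M18 genes, with duplicates marked. No column of the table was left without a library, and 54079 of 54232 gene IDs had a symbol.

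Counts were tested with edgeR 4.0.16 in R 4.3.3 (filterByExpr, TMM, quasi-likelihood, 1 model with genotype over all 18 libraries). A change past 1 log2 unit was tested with glmTreat in its worst-case form and a change of any amount with glmQLFTest, both at a Benjamini-Hochberg adjusted p of 0.1. SE is the log2 fold change divided by the root of the test's F, and intervals are 1.96 SE to each side, both approximate. CPM are TMM-scaled, and counting error sets a floor of 3 counts per library. Steps were tested on simulated data.

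Every member is named in every comparison. Of the pathway list, the 5 largest falls and 5 largest rises among genes changed by any amount against WT are named, as are the genes most like Akap3 and Akap4 by Pearson's r. Pkib, Prkacb, Crem, Fhl5, Pde1a, Adcy10, Pde3b and Pde4a were named after their values were seen. The members and lists, markers included, were chosen with earlier results of these data known. Other marker lists (spermatocytes, spermatogonia, Sertoli, peritubular and vascular cells, macrophages) had 10, 7, 9, 5 and 4 genes tested. In KO 2, 0, 1, 1 and 0 were lower and 3, 2, 0, 2 and 1 higher by any amount, where 13.5% and 16.4% of all genes were. In KI 1, 0, 2, 1 and 0 were lower and 3, 1, 1, 1 and 1 higher, where 15.4% and 16.1% of all genes were. Cfap91 of the pathway list had no row under that symbol. Alternatives were DESeq2 1.42.0, its size factors, library totals, no filter, at least 10 counts in every library, only the compared genotypes, a replicate block, a threshold of 0.05, summed close pairs and each library left out. The interval form of glmTreat and the fits without the libraries labelled KI 4 and KO 3, or with pairs summed and KI 4 left out, were added after seeing the data. The sequence around 1 Prkar2a match is not reported here.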

Additional observations from a re-analysis of the deposited data

Results flagged for a closer look

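One value stood apart from the other libraries of its genotype. Prkar2a in the library labelled KI 3 was 51.9 CPM, while the other 5 KI libraries lay between 69.2 and 79.3 CPM. Its gap to the nearest library was 0.630 of the range of the KI group, just past Dixon's 95% critical value for 6 libraries. It was the only such case among the 30 combinations of member and genotype checked, and chance passes that value in about 1 of 20. Leaving out KI 3 changed no call on Prkar2a.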

How the results depend on the processing

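The falls of Prkar2a, Akap4, Akap1, Ropn1 and Fscb by any amount kept their direction under all 30 alternatives in both comparisons, and the calls held in all but 1, Fscb in KI with close pairs summed and the library labelled KI 4 left out. Members called past 1 log2 unit in KI against WT were 1 when close pairs were summed and the library labelled KI 4 was left out, where fewer libraries remained. Of the pathway genes, 3 were called past 1 log2 unit in KI against WT with the interval form of glmTreat and 3 with only the 2 genotypes compared. Those changed by any amount were 20 in KO and 21 in KI with close pairs summed, and 19 and 18 with that library also left out. The interval form called 205 genes higher and 311 lower past 1 log2 unit in KO and 171 and 423 in KI, and summing close pairs called 1871 and 1784 by any amount in KO and 1619 and 1783 in KI. Replicate numbers did not pair the samples, as deviations of same-numbered libraries had r from -0.44 to 0.48. With a replicate block, 2 pathway genes were called past 1 log2 unit in KI, 6 members changed by any amount in KO, with Akap3 added (-0.69, edgeR adjusted p = 0.0718), and no other member's call changed. Leaving out each library in turn gave 1 to 3 pathway genes past 1 log2 unit in KO, the most without KO 1, and 1 to 4 in KI, with 4 without KO 1 and 3 without KO 3.

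Values near 0 that passed no test changed sign. Prkaca in KO was 0.099 with library totals and 0.0038 without the libraries labelled KI 4 and KO 3. Prkar1a in KI against KO was 0.030 with DESeq2, 0.030 with its size factors, 0.0078 with library totals, 0.053 with no filter, 0.053 with only those genotypes, 0.0030 with pairs summed and 0.023 without KI 4 and KO 3. Prkar2b in KI was 0.13, 0.012, 0.026, 0.0057 and 0.046 under library totals, no filter, only those genotypes, pairs summed, and without KI 4 and KO 3. With pairs summed, Prkar2a in KI against KO was 0.021. With KI 4 also left out it was 0.015, and Akap3 and Ropn1l there were 0.0068 and 0.029, and Prkar2b in KI 0.0013. Leaving out 1 library gave Prkaca -0.077 to 0.051 in KO, -0.034 to 0.17 in KI and -0.012 to 0.17 in KI against KO. For Prkar1a and Ropn1l in KI against KO it gave -0.084 to 0.072 and -0.20 to 0.0021, and for Prkar2b in KI -0.090 to 0.099. The cause of these shifts was not tested. Prkar2b had the fewest counts of the members, 88 to 174 per library.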
